A study of Mus musculus with 8 samples.

Results

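The genes described here encode proteins of the large subunit of the mitochondrial ribosome. With earlier results of these data known, they were taken by name, as every identifier in the deposited expression tables that begins with Mrpl followed by a number. No measured value entered this rule. The rule gave 47 of 20461 identifiers. Each of the 47 had 1 entry with an OK status in every library, and all 47 passed the filter on low values, which asked for at least 1 FPKM (fragments mapped to a gene, scaled to its transcript length and to all mapped fragments) in at least 2 of the 8 libraries.

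The 8 libraries came from mouse embryonic stem cells of tatsf1 flox/flox CreERT2 mice, grown on mouse embryonic fibroblasts (MEFs) and sequenced after enrichment for mRNA. Tamoxifen activates CreERT2, a recombinase, and so deletes the floxed gene Htatsf1, whose product is an RNA-binding protein associated with splicing. The groups were tamoxifen 48 h, ethanol 48 h, tamoxifen 72 h and ethanol 72 h, with 2 libraries in each, and the design compares stem cells in which deletion of Htatsf1 was induced with cells in which it was not. Every group carried the same floxed allele and CreERT2, and ethanol-treated cells received no tamoxifen, so deletion and tamoxifen itself cannot be told apart. Whether a group's libraries were grown as separate cultures, and how many stem cell lines were used, is not stated in the labels, so the p-values rest on a spread between libraries that could be technical.

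The fragments implied by the deposited intervals summed to about 8990000 to 16850000 per library, and a single Mrpl gene rested on 99 to 2142 fragments in a library. Htatsf1 averaged 3.95 ± 0.25 FPKM in tamoxifen and 22.3 ± 0.92 FPKM in ethanol at 48 h, and 4.38 ± 0.36 FPKM in tamoxifen and 22.7 ± 0.02 FPKM in ethanol at 72 h (SD, n = 2 each). The mRNA thus remained at 17.7% of ethanol at 48 h and 19.2% at 72 h, and protein was not measured here. Pou5f1, a defining stem cell transcription factor, lay between 472 and 655 FPKM over the 8 libraries. Of 29 fibroblast markers, of which 0 were at 0 FPKM in any library, 27 were higher in tamoxifen at 48 h and 28 at 72 h. These are 93.1% and 96.6%, beside 7.88% of all tested genes higher at 48 h and 20.1% at 72 h. Their summed level was 1358 to 1376 FPKM in tamoxifen and 948 to 992 FPKM in ethanol at 48 h, and 1867 to 1987 FPKM in tamoxifen and 1004 to 1043 FPKM in ethanol at 72 h. Of 14 tested stem cell markers 1 was lower in tamoxifen at 48 h (7.14%, beside 4.47% of all tested genes) and 9 at 72 h (64.3%, beside 18.5%). Sox2, the marker that was not tested, is listed at 0 FPKM in every library. In such bulk samples fewer cells of a type and less RNA per cell cannot be told apart, and the part of the cell mixture in the changes of Mrpl genes was not tested.

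Mitochondria keep a ribosome of their own, descended from that of bacteria, which translates the few messages of the mitochondrial genome into core subunits of the respiratory chain. Its ribosomal RNAs are transcribed inside the organelle, while all of its proteins are encoded in the nucleus, made in the cytosol and imported. The large subunit holds the peptidyl transferase centre and the exit tunnel. Some of its proteins have counterparts in bacteria, and others were added in the mitochondrial lineage and cover the surface, the tunnel exit and the central protuberance, the knob on top of the subunit. Pluripotent stem cells rely strongly on glycolysis, and respiration gains weight as they differentiate.

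Promoters are shown first because nuclear genes for mitochondrial proteins are known to be activated by ETS family factors such as GABP and by NRF1, whose binding motifs lie near the start sites of many such genes. Windows of 300 bases, 250 before and 50 after the start site, were taken from RefSeq on GRCm38.p6 and found for 41 of the 47 genes (Mrpl4, Mrpl13, Mrpl15, Mrpl19, Mrpl38 and Mrpl54 had no entry). Both strands were searched for CCGGAAG, the ETS motif, and for CGCANGCGC, an NRF1 motif. None of the windows printed here holds both motifs, so no matches overlap in them. Mrpl3, Mrpl33 and Mrpl10 are printed as genes called at 72 h, and Mrpl27 and Mrpl51 as genes with an ETS match. Mrpl24, of next smallest p at 72 h, and the uncalled Mrpl23 and Mrpl20 held neither motif and are not printed. The printed windows thus do not show how often the motifs occur. Neither Mrpl27 nor Mrpl51 was called from FPKM at 48 h or 72 h, but the authors' deposited table had Mrpl51 lower at both times. Mrpl55 is printed as the gene of smallest p at 48 h and has neither motif. Capitals mark the matches. The windows lie at chr9:105053018-105053317 (Mrpl3), chr5:31613701-31614000 (Mrpl33), chr11:97041332-97041631 (Mrpl10), chr11:94653541-94653840 (Mrpl27), chr6:125191950-125192249 (Mrpl51) and chr11:59202236-59202535 (Mrpl55), all on the plus strand.
Mrpl3: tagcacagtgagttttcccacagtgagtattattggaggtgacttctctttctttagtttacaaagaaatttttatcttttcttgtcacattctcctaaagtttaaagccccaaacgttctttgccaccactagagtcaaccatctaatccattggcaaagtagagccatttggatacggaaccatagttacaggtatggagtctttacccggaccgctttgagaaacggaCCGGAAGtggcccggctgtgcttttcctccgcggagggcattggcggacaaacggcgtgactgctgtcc
Mrpl33: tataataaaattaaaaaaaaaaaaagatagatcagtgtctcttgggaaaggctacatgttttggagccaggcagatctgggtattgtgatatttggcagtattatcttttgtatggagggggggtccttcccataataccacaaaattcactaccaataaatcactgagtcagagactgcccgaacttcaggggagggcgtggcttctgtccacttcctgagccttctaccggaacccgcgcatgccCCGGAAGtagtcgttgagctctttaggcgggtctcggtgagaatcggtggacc
Mrpl10: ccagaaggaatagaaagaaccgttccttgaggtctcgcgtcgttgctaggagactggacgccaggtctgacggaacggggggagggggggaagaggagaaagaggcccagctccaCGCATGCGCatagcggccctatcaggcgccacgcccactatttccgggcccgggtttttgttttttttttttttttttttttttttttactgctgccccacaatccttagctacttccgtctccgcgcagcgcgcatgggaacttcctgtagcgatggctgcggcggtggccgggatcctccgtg
Mrpl27: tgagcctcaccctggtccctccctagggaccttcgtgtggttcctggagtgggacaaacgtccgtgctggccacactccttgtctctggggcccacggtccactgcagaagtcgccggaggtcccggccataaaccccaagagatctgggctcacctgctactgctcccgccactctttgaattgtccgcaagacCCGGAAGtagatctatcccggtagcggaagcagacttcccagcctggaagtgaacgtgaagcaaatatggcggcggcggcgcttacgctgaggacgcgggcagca
Mrpl51: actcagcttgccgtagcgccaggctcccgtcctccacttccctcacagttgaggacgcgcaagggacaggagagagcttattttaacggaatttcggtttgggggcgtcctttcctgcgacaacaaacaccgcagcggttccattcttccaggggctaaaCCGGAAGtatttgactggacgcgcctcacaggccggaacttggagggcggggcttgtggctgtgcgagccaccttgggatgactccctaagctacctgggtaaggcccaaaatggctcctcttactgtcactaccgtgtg
Mrpl55: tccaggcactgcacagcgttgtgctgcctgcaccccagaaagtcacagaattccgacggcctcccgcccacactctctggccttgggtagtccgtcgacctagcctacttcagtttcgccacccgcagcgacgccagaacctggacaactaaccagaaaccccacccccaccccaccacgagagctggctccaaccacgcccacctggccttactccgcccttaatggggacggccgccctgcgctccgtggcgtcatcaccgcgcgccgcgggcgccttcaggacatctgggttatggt

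The ETS match begins at position -19 in Mrpl3, -3 in Mrpl33, -55 in Mrpl27 and -90 in Mrpl51, and the NRF1 match begins at -135 in Mrpl10, where the start site is +1. Each gene was counted once, as holding a motif if any of its windows did, and Mrpl2 had 3 windows and Mrpl48 had 4. Of the 41 Mrpl genes with a window 13 (31.7%) held the ETS motif, 12 (29.3%) the NRF1 motif and 22 (53.7%) at least 1 of them. Among 8905 tested genes with a window these shares were 20.3%, 15.8% and 32.6%, and among all 27025 genes that RefSeq gives a window 9.93%, 7.12% and 15.6%. Of the 11 genes with a window that were lower at 72 h 8 held a motif (72.7%). Of the 28 genes with a window that were called at neither time 13 did (46.4%). A difference between these shares was not tested. Both motifs occurred among genes lower at 72 h and among genes called at neither time. A match is a description of the letters and not of a bound site, and a window without a match says nothing of the factor.

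Levels of the 47 genes differed more between genes than between libraries. Over the 8 libraries 1 gene averaged under 10 FPKM, 34 averaged 10 to 50 FPKM and 12 averaged 50 FPKM or more. The highest mean was that of Mrpl42, a mitochondria-specific protein, at 114 FPKM, with a range of 76.3 to 133 FPKM. Mrpl12, which forms the flexible stalk that recruits translation factors, averaged 101 FPKM with a range of 92.8 to 109 FPKM. Mrpl18, a component of the central protuberance, averaged 93.1 FPKM with a range of 65.7 to 118 FPKM. These 3 ranges overlap, so their order is not separated by the spread between libraries. At the low end stood Mrpl41, with a mean of 6.32 FPKM and a range of 5.43 to 7.19 FPKM, Mrpl19, with 11.8 FPKM and a range of 8.64 to 14.8 FPKM, and Mrpl35, with 13.7 FPKM and a range of 10.7 to 17.2 FPKM. Mrpl41 lay below Mrpl19 in all libraries, while the ranges of Mrpl19 and Mrpl35 overlap. The locus of Mrpl41 shares 1002 of its 2629 bases with Wdr85, which averaged 5.50 FPKM, and that of Mrpl19 overlaps Gcfc2, so both levels, and the lowest place of Mrpl41, are uncertain. In each of the 47 genes the highest library was less than 2-fold above the lowest, with ratios of 1.16 in Mrpl52 to 1.88 in Mrpl51. FPKM is a level per transcript length, so these levels can be compared between genes. The plot of levels by gene shows how narrow the spread between libraries was beside the spread between genes.

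**Figure D1:**
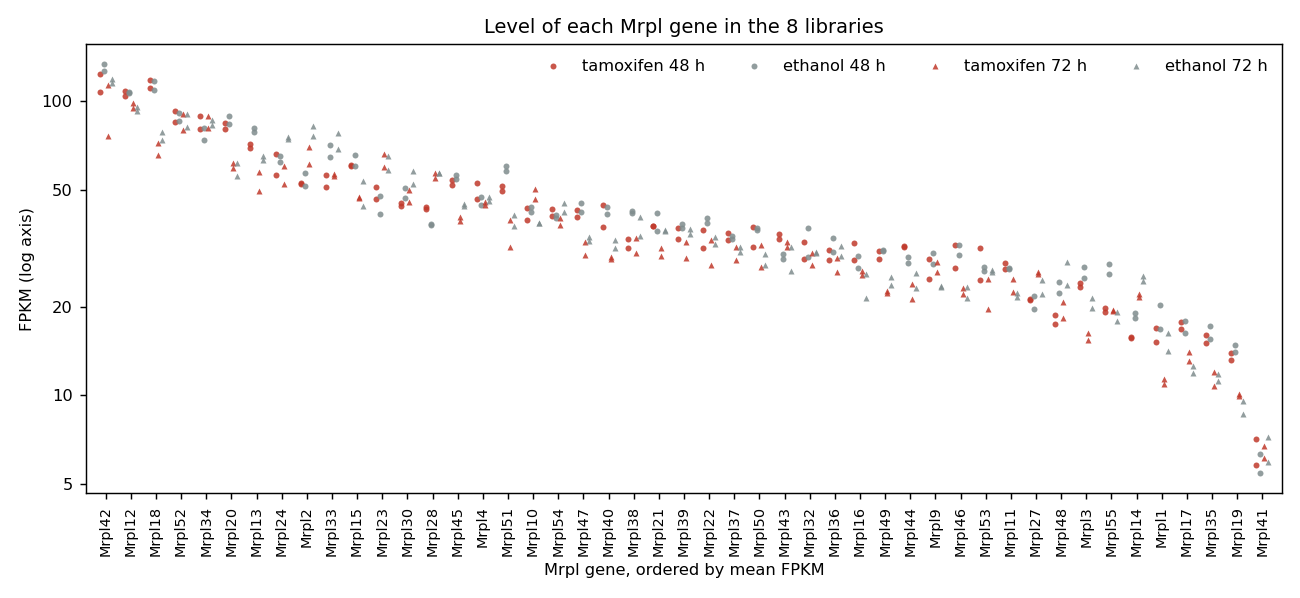
FPKM on a log axis for each of the 47 Mrpl genes, ordered by mean, with 1 point per library (circles 48 h, triangles 72 h, red tamoxifen, grey ethanol). Gene means ran from 6.32 FPKM in Mrpl41, whose level is uncertain because its locus overlaps Wdr85, to 114 FPKM in Mrpl42, while in each gene the 8 libraries stayed within 2-fold.

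Summed over the 47 genes the level was slightly lower in tamoxifen at both times. At 48 h the sum was 2068 and 1976 FPKM in the tamoxifen libraries, against 2087 and 2124 FPKM in the ethanol libraries, and the tamoxifen mean was 96.0% of the ethanol mean. At 72 h it was 1732 and 1869 FPKM in tamoxifen, against 1947 and 1931 FPKM in ethanol, which gave 92.9%. Both tamoxifen libraries lay below both ethanol libraries at each time. Within ethanol the sum at 72 h was 92.1% of that at 48 h, close in size to the difference between tamoxifen and ethanol at 72 h. As a share of all FPKM in a library, Mrpl genes made up 0.463% in tamoxifen and 0.476% in ethanol at 48 h, and 0.396% in tamoxifen and 0.427% in ethanol at 72 h. With 2 libraries a group an exact permutation test cannot go below p = 0.333 (two-sided), so the sums were not tested further.

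At 48 h of tamoxifen few Mrpl genes differed from ethanol. By limma on log2(FPKM + 1), fitted to all 11867 tested genes and called at a Benjamini-Hochberg adjusted p of 0.05, 5 of the 47 were lower (10.6%) and 0 were higher, beside 4.47% of all tested genes lower and 7.88% higher, or 12.4% in either direction. At an unadjusted p of 0.05 the counts were 7 lower and 2 higher. The median log2 change of the 47 was -0.06, against 0.02 over all tested genes. Both tamoxifen libraries lay below both ethanol libraries in 15 genes (31.9%, against 26.1% of all tested genes), above them in 3 (6.38%, against 32.7%), and the groups overlapped in 29. After median-ratio scaling of the libraries the same 5 genes were lower and 0 higher. Rises made up 47.8% of the calls over all genes under that scaling, and 63.8% with FPKM as deposited. The median of the 47 was -0.10 without tamoxifen 48 h replicate 1 and -0.03 without tamoxifen 48 h replicate 2 or ethanol 48 h replicate 2.

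The gene of smallest p at 48 h was Mrpl55, on chromosome 11 from 59016019 to 59019504 of mm9, which encodes a protein found in the ribosomes of animal mitochondria. It stood at 19.8 and 19.2 FPKM in tamoxifen 48 h, against 25.8 and 27.9 FPKM in ethanol 48 h. The ethanol libraries of 48 h were the high ones, and those of tamoxifen 72 h (19.4 and 19.3 FPKM) and ethanol 72 h (19.1 and 17.8 FPKM) were near the tamoxifen libraries of 48 h. The log2 change at 48 h was -0.44 ± 0.07 (SE, adjusted p = 0.00256 by limma).

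The remaining 4 were the counterpart of a small bacterial protein, a protein of the subunit interface and a pair from the central protuberance. Mrpl33, whose bacterial counterpart lies near the exit site for tRNA, stood at 56.3 and 50.9 FPKM in tamoxifen, against 71.1 and 64.5 FPKM in ethanol (log2 change -0.33 ± 0.08 SE, limma adjusted p = 0.0184). Mrpl14, which sits at the interface between the subunits and is the docking site of the assembly factor Malsu1 in human mitochondria, stood at 15.7 and 15.7 FPKM in tamoxifen, against 18.4 and 19.0 FPKM in ethanol (-0.24 ± 0.06 SE, limma adjusted p = 0.028). Mrpl38 and Mrpl48 belong to the central protuberance. Mrpl38 stood at 33.9 and 31.6 FPKM in tamoxifen, against 42.4 and 41.7 FPKM in ethanol (-0.35 ± 0.08 SE, limma adjusted p = 0.0194), and Mrpl48 at 18.7 and 17.4 FPKM in tamoxifen, against 24.3 and 22.2 FPKM in ethanol (-0.35 ± 0.09 SE, limma adjusted p = 0.0381). In each of the 5 genes the groups of 48 h did not overlap. The count of 5 fell to 3 without tamoxifen 48 h replicate 1 and to 1 without tamoxifen 48 h replicate 2, ethanol 48 h replicate 1 or ethanol 48 h replicate 2. Mrpl55 kept its call in all of these, Mrpl33 and Mrpl38 lost theirs without any 1 of the last 3 (adjusted p up to 0.147 and 0.113), and Mrpl14 and Mrpl48 without any 1 of the 4 (up to 0.162 and 0.209).

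No Mrpl gene passed upwards at 48 h, but Mrpl28, the counterpart of a bacterial large-subunit protein, came near, a gene chosen here after its values were seen. It stood at 42.9 and 43.7 FPKM in tamoxifen, against 38.0 and 38.3 FPKM in ethanol. It had a log2 change of 0.18 ± 0.05 (SE, limma adjusted p = 0.0501), beside 0.09 without a call in the authors' deposited table. It was called without tamoxifen 72 h replicate 1 or tamoxifen 72 h replicate 2, which enter the fit only through the shared spread.

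At 72 h more of the family was lower, and 1 gene was higher. By limma 12 of the 47 were lower (25.5%) and 1 was higher (2.13%), beside 18.5% of all tested genes lower and 20.1% higher, or 38.5% in either direction. The median log2 change was -0.10, against -0.01 over all tested genes, and it was -0.04 without tamoxifen 72 h replicate 1. Both tamoxifen libraries lay below both ethanol libraries in 23 genes (48.9%, against 34.5% of all tested genes) and above them in 7 (14.9%, against 35.2%), and the groups overlapped in 17. The 12 lower genes stood at 73.4% (Mrpl1) to 89.5% (Mrpl45) of the ethanol mean, so each change was small. In the same libraries the fibroblast markers went the other way, with a median log2 change of 1.05. Whether this bears on the Mrpl changes was not tested.

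**Figure D2:**
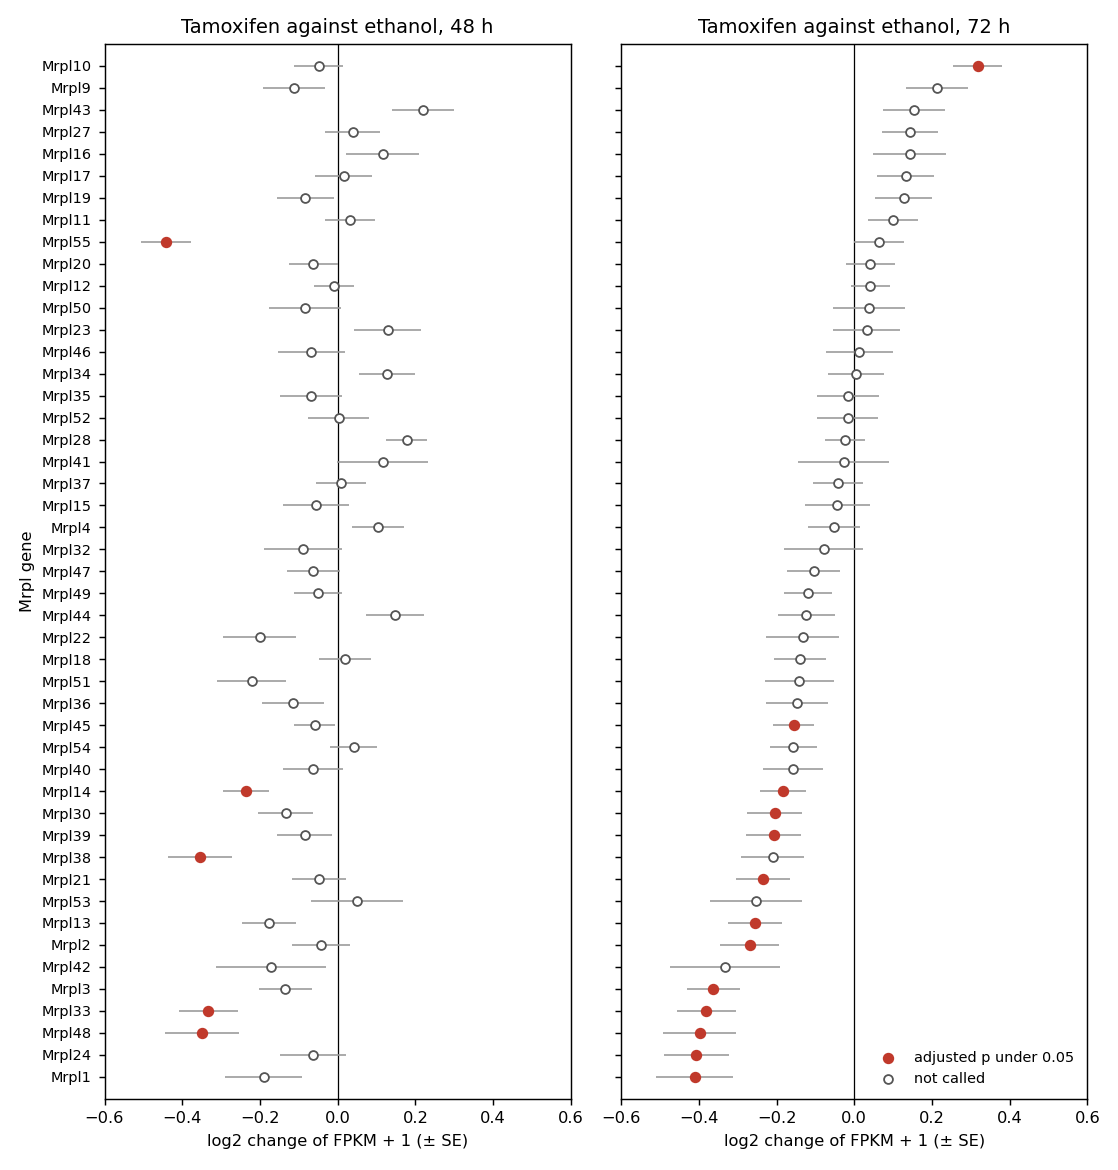
Log2 change of FPKM + 1 between tamoxifen and ethanol for each Mrpl gene at 48 h (left) and 72 h (right), ordered by the change at 72 h. Bars are ± SE from limma and filled points have an adjusted p under 0.05, with 5 genes lower at 48 h and 12 lower and 1 higher at 72 h.

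Around the catalytic core, Mrpl3 and Mrpl2 were lower at 72 h. Mrpl3, on chromosome 9 from 104955598 to 104979806 of mm9, reaches the peptidyl transferase centre, and mutations of it cause a mitochondrial disease in humans. It stood at 16.2 and 15.4 FPKM in tamoxifen 72 h, against 19.8 and 21.5 FPKM in ethanol 72 h, and had the smallest p of the family (log2 change -0.36 ± 0.07 SE, limma adjusted p = 0.0023). Mrpl2, another core protein of that centre, stood at 61.3 and 69.9 FPKM in tamoxifen, against 75.8 and 82.4 FPKM in ethanol (-0.27 ± 0.08 SE, limma adjusted p = 0.0176). Mrpl14 of the interface stood at 21.6 and 22.1 FPKM in tamoxifen, against 25.5 and 24.4 FPKM in ethanol (-0.18 ± 0.06 SE, limma adjusted p = 0.0328). In all 3 genes the groups did not overlap. Mrpl27, which in bacteria reaches into the same catalytic centre, stood at 26.1 and 25.8 FPKM in tamoxifen, against 22.1 and 24.7 FPKM in ethanol, and did not pass (log2 change 0.14, limma adjusted p = 0.136).

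Of the stalk proteins, Mrpl1 was lower and Mrpl10 higher at 72 h. Mrpl1, the protein of the mobile stalk beside the tRNA exit site, stood at 11.4 and 10.9 FPKM in tamoxifen 72 h, against 14.1 and 16.2 FPKM in ethanol 72 h (log2 change -0.41 ± 0.10 SE, limma adjusted p = 0.00815). Mrpl10, on chromosome 11 from 96902900 to 96910527 of mm9, anchors the opposite stalk and was the only gene of the 47 called higher at 72 h. It stood at 50.2 and 46.6 FPKM in tamoxifen 72 h, against 38.6 and 38.6 FPKM in ethanol 72 h (0.32 ± 0.06 SE, limma adjusted p = 0.00315). At 48 h its 39.5 and 43.3 FPKM in tamoxifen overlapped the 42.0 and 43.7 FPKM in ethanol. Its partners in that stalk did not pass at 72 h, Mrpl12 with a log2 change of 0.04 (limma adjusted p = 0.551) and Mrpl11 with 0.10 (limma adjusted p = 0.252).

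Near the exit tunnel, where the new chain leaves towards the inner membrane, Mrpl24 and Mrpl45 were lower. Mrpl24, whose bacterial counterpart starts assembly of the subunit, stood at 52.3 and 60.3 FPKM in tamoxifen, against 74.2 and 75.3 FPKM in ethanol (log2 change -0.41 ± 0.08 SE, limma adjusted p = 0.00391). Its locus overlaps Rrnad1 by 833 bases, and since strand-specific counting is not stated its level is uncertain. Rrnad1 averaged 3.62 FPKM and was not called at 72 h (adjusted p = 0.811). Mrpl45, which tethers the ribosome to the inner membrane, stood at 40.3 and 39.2 FPKM in tamoxifen, against 44.1 and 44.6 FPKM in ethanol (-0.16 ± 0.05 SE, limma adjusted p = 0.0403). The groups did not overlap in either gene, but the call of Mrpl45 was lost without any 1 of the 8 libraries (adjusted p up to 0.136). Mrpl22 and Mrpl23, which also line the tunnel exit, did not pass (log2 changes -0.13 and 0.03, limma adjusted p = 0.292 and 0.797).

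The other genes lower at 72 h lie in several regions of the subunit. Mrpl33 stood at 56.6 and 55.5 FPKM in tamoxifen, against 77.9 and 68.9 FPKM in ethanol (log2 change -0.38 ± 0.08 SE, limma adjusted p = 0.00315). Mrpl48 stood at 18.2 and 20.8 FPKM in tamoxifen, against 28.4 and 23.7 FPKM in ethanol (-0.40 ± 0.09 SE, limma adjusted p = 0.00774). Mrpl33, Mrpl48 and Mrpl14 were the 3 genes lower at both times by limma. The locus of Mrpl48 overlaps that of Rab6a, which averaged 49.1 FPKM and was not called at either time, and the mouse genome holds a Mrpl48 pseudogene, so the level of Mrpl48 is uncertain. Mrpl13, a counterpart of an early-binding bacterial protein, stood at 49.7 and 57.6 FPKM in tamoxifen, against 63.1 and 65.1 FPKM in ethanol (-0.26 ± 0.07 SE, limma adjusted p = 0.0142). Mrpl21 stood at 29.8 and 31.6 FPKM in tamoxifen, against 36.5 and 36.1 FPKM in ethanol (-0.24 ± 0.07 SE, limma adjusted p = 0.0225). Mrpl39, a mitochondria-specific protein, stood at 29.3 and 33.1 FPKM in tamoxifen, against 36.8 and 35.4 FPKM in ethanol (-0.21 ± 0.07 SE, limma adjusted p = 0.0392). In each of these genes both tamoxifen libraries lay below both ethanol libraries. The last of the 12 was Mrpl30 (-0.21, limma adjusted p = 0.042), named after its values were seen because it has the largest p of the group. It kept its call without tamoxifen 72 h replicate 2 or ethanol 72 h replicate 1 and lost it without each of the other 6 libraries.

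How far these calls rest on single libraries varied. The count of 12 was 5 without tamoxifen 72 h replicate 1, 7 without ethanol 72 h replicate 1 and 5 without ethanol 72 h replicate 2. Mrpl3, Mrpl33, Mrpl24 and Mrpl10 kept their calls without each of the 8 libraries. Mrpl1 lost its call without ethanol 72 h replicate 2 (adjusted p = 0.07), Mrpl48 without tamoxifen 72 h replicate 1 or ethanol 72 h replicate 1 (adjusted p up to 0.0686), and Mrpl13 and Mrpl2 without tamoxifen 72 h replicate 1 or ethanol 72 h replicate 2 (adjusted p up to 0.0889 and 0.119). Mrpl21 lost its call without any 1 of tamoxifen 72 h replicate 1, ethanol 72 h replicate 1 and ethanol 72 h replicate 2 (adjusted p up to 0.11), and Mrpl14 without any 1 of the 4 libraries of 72 h (adjusted p up to 0.158). Mrpl39 lost its call without those 3 libraries of 72 h or either ethanol library of 48 h, each left out in turn (adjusted p up to 0.235). The plot of the called genes shows the values behind these counts.

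**Figure D3:**
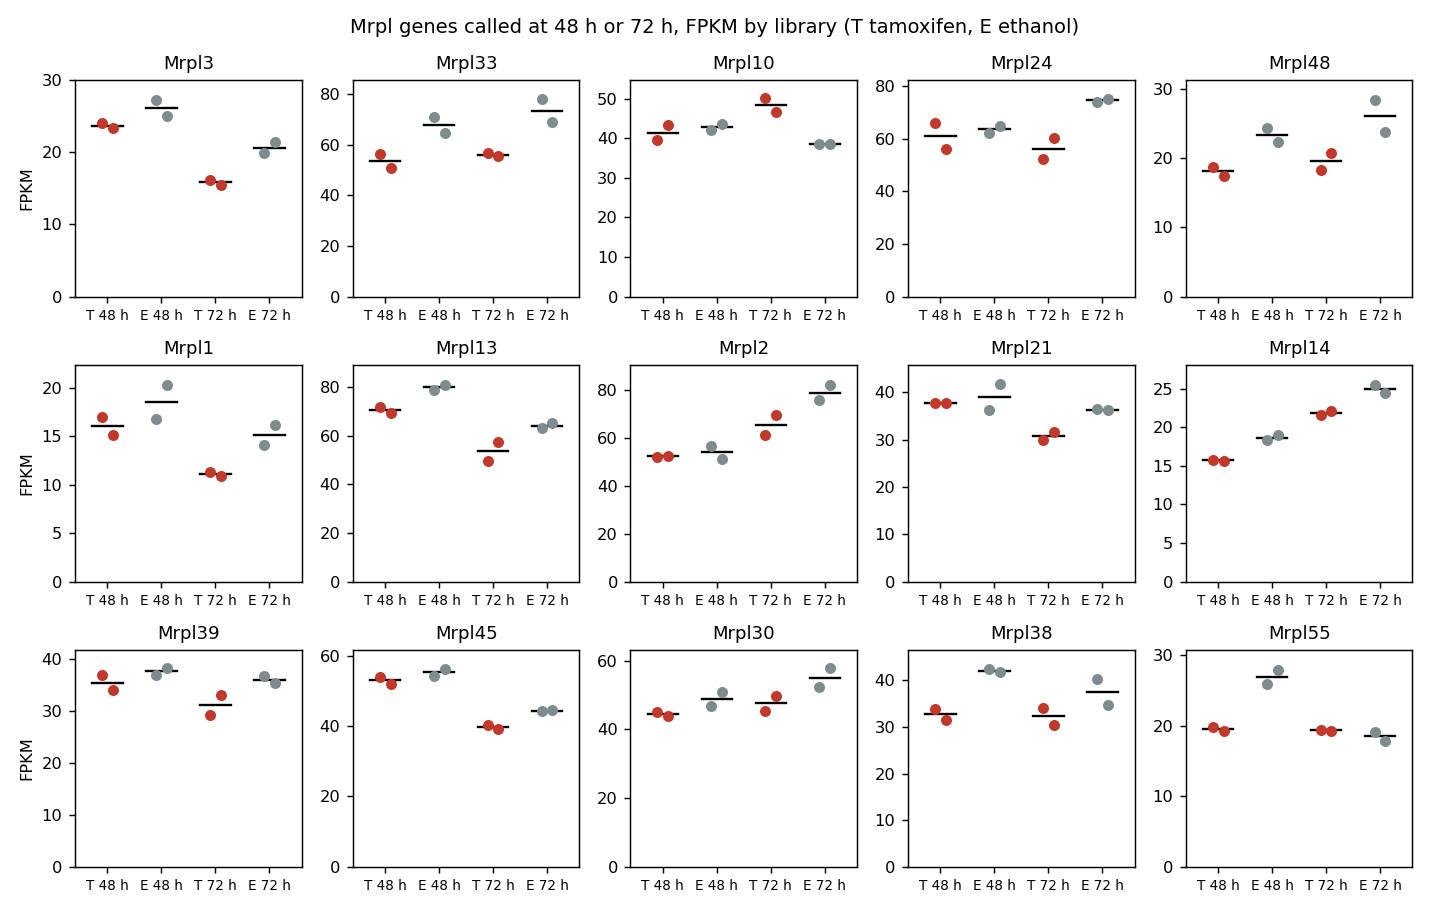
FPKM in each library for the 15 Mrpl genes called at 48 h or 72 h, with tamoxifen (red) left of ethanol (grey) at each time and a line at the group mean (n = 2). Mrpl10 is the gene that was higher in tamoxifen at 72 h, and Mrpl55 is high in ethanol 48 h alone.

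The authors' deposited tables of scaled read counts also compare tamoxifen with ethanol at each time. At 48 h the authors' deposited table had 7 of the 47 lower (5.31% of all genes in it) and 0 higher (6.62%), and 4 of these 7 were among the 5 called from FPKM. At 72 h the authors' deposited table had 13 lower (15.5%) and 1 higher (16.5%), and 11 of these 13 were among the 12 called from FPKM. The higher gene was again Mrpl10. Mrpl14, called lower from FPKM at both times, was called at neither in the authors' deposited table (log2 changes -0.19 at 48 h and -0.07 at 72 h). Mrpl51, called from FPKM at neither time, was lower there at both (-0.27 at 48 h and -0.21 at 72 h). Both sets of calls start from the same reads.

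The 2 comparisons share no library, so their changes were set side by side. Of the 47 genes 23 had a negative change at both times and 7 a positive change at both, and over the genes the changes had a Spearman correlation of 0.447, a description of 47 genes measured in the same libraries. In 11 genes both tamoxifen libraries lay below both ethanol libraries at both times, and 32 genes were called at neither time. Over all tested genes 26.1% lay below at 48 h and 34.5% at 72 h. The counts over both times and the correlation were not taken over all tested genes. They describe the 47 genes and do not show a trait of the family.

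The difference between the 72 h and the 48 h change was tested directly, since a call at one time and not at the other does not show one. By limma 1 gene differed upwards (2.13%) and 0 downwards, beside 2.00% and 1.45% of all tested genes, 3.45% in all, and at an unadjusted p of 0.05 the counts were 3 and 5. The gene was Mrpl55, whose change was -0.44 at 48 h and 0.06 at 72 h, a difference of 0.50 ± 0.09 (SE, limma adjusted p = 0.025). Mrpl10 followed with 0.37 ± 0.09 (SE, adjusted p = 0.054) and then Mrpl9, the counterpart of a bacterial protein near the L1 stalk, with 0.33 ± 0.11 (SE, adjusted p = 0.138). Neither passed. Mrpl9 stood at 29.0 and 24.9 FPKM in tamoxifen 48 h, against 27.9 and 30.4 FPKM in ethanol 48 h, and at 26.2 and 28.3 FPKM in tamoxifen 72 h, against 23.3 and 23.4 FPKM in ethanol 72 h. The call of Mrpl55 was lost without any 1 of the 4 libraries of 48 h or without ethanol 72 h replicate 2 (adjusted p up to 0.0988).

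Between the times within ethanol the calls in the family were mostly falls, while those over all tested genes were mostly rises with FPKM as deposited and near evenly split after median-ratio scaling. In ethanol, 22 of the 47 genes were lower at 72 h than at 48 h (46.8%) and 5 were higher (10.6%), beside 19.2% of all tested genes lower and 38.0% higher, or 57.2% in either direction. The share of the family called in either direction was close to that of all tested genes, and so is no result about the family. The median log2 change was -0.17, against 0.11 over all tested genes, and 36 of the 47 lay below the median of all genes. That shift of all genes was -0.01 after median-ratio scaling. Under that scaling the median of the family was -0.31, with 29 genes lower and 4 higher, beside 3482 of all tested genes lower and 3247 higher. Rises made up 48.3% of the calls over all genes, against 66.4% with FPKM as deposited. After quantile normalization the family median was -0.15, against -0.01 over all genes. There 21 Mrpl genes were lower and 7 higher, beside 3226 and 3073 of all genes. The family median minus that of all genes was -0.28 as deposited, -0.29 after median-ratio scaling and -0.14 after quantile normalization. Both libraries of ethanol 72 h lay below both of ethanol 48 h in 28 genes (59.6%, against 29.4% of all tested genes) and above them in 9 (19.1%, against 50.8%). The deposited names of the 48 h libraries carry another number than those of 72 h, so time and whatever that number stands for cannot be told apart. This comparison uses the same ethanol libraries as the tamoxifen comparisons, so its values are given on their own and were not correlated with theirs.

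**Figure D4:**
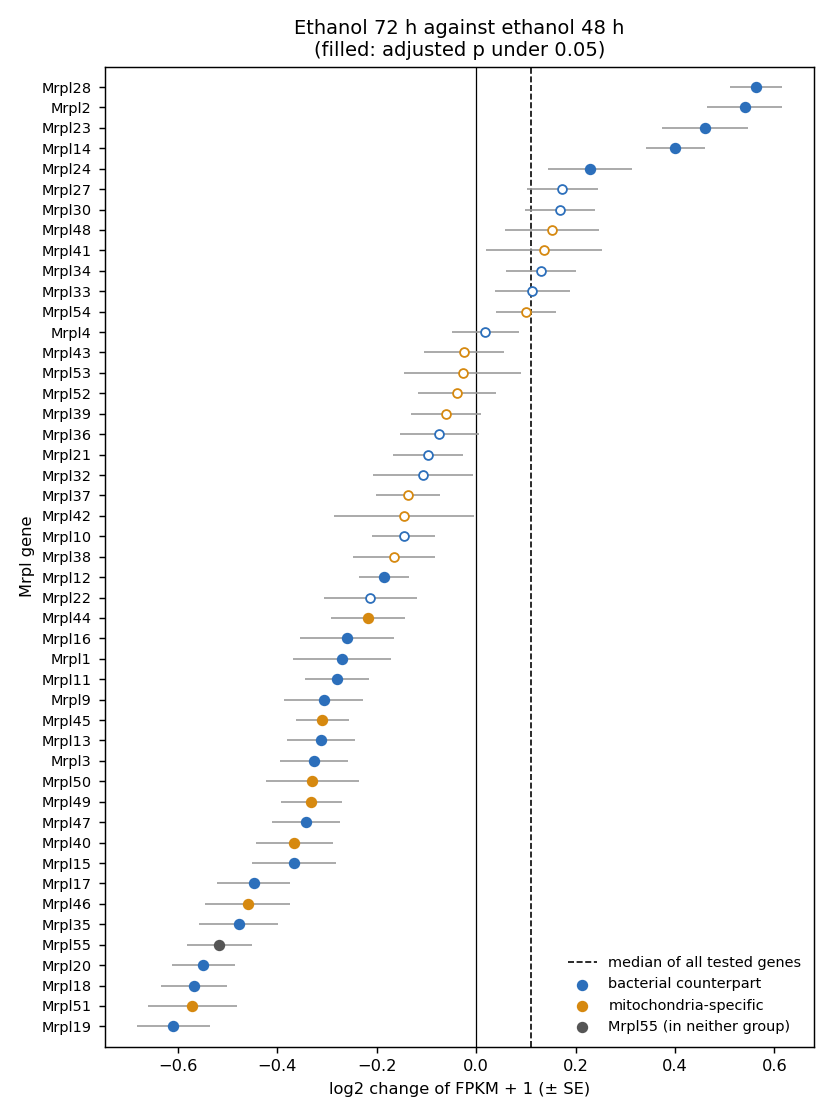
Log2 change of FPKM + 1 between ethanol 72 h and ethanol 48 h for each Mrpl gene (± SE from limma, filled where the adjusted p is under 0.05). Colours show the genes sorted as with or without a bacterial counterpart, and Mrpl55, which was not sorted. The dashed line at 0.11 is the median of all tested genes, and 36 of the 47 genes lie below it.

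Genes lower at 72 h in ethanol were led by Mrpl20, Mrpl18 and Mrpl19, counterparts of bacterial proteins. Mrpl20, which in bacteria binds early during assembly, stood at 55.6 and 61.7 FPKM in ethanol 72 h, against 88.7 and 83.7 FPKM in ethanol 48 h (log2 change -0.55 ± 0.06 SE, limma adjusted p = 5.7e-05). Mrpl18 of the central protuberance stood at 73.6 and 78.3 FPKM in ethanol 72 h, against 109 and 117 FPKM in ethanol 48 h (-0.57 ± 0.07 SE, limma adjusted p = 5.81e-05). Mrpl19 stood at 9.55 and 8.64 FPKM in ethanol 72 h, against 14.01 and 14.8 FPKM in ethanol 48 h (-0.61 ± 0.07 SE, limma adjusted p = 7.3e-05), the largest fall of the 47. In all 3 genes the libraries of 72 h lay clear of those of 48 h, as they also did in tamoxifen, where Mrpl18 stood at 65.7 and 72.1 FPKM at 72 h, against 118 and 111 FPKM at 48 h. The overlap of Mrpl19 with Gcfc2, which makes its level uncertain, spans 1253 bases. Mrpl51 (-0.57), Mrpl55 (-0.52), Mrpl35 (-0.48), Mrpl17 (-0.45), Mrpl49 (-0.33) and Mrpl45 (-0.31) also passed, with limma adjusted p of at most 0.00108. Mrpl49 shares 89 bases with Syvn1.

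The 5 genes higher at 72 h in ethanol were all counterparts of bacterial proteins. Mrpl28 stood at 56.8 and 56.9 FPKM in ethanol 72 h, against 38.0 and 38.3 FPKM in ethanol 48 h, and had the smallest p (log2 change 0.56 ± 0.05 SE, limma adjusted p = 1.34e-05). Mrpl2 stood at 75.8 and 82.4 FPKM in ethanol 72 h, against 56.9 and 51.4 FPKM in ethanol 48 h (0.54 ± 0.08 SE, limma adjusted p = 0.000191). Mrpl14 stood at 25.5 and 24.4 FPKM in ethanol 72 h, against 18.4 and 19.0 FPKM in ethanol 48 h (0.40 ± 0.06 SE, limma adjusted p = 0.00027). The remaining 2, outside the rule for named genes, were Mrpl23 (0.46) and Mrpl24 (0.23). The call of Mrpl24 (limma adjusted p = 0.0383) was lost with median-ratio scaling, without the trend and with a replicate block. Its overlap with Rrnad1 makes its level uncertain here too. Genes of 1 particle thus changed in both directions with time.

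Proteins with a bacterial counterpart and mitochondria-specific proteins were counted apart. The sorting went by gene number and did not cover Mrpl55, so it says nothing of whether that protein has a counterpart. Of 29 genes with a counterpart 2 were lower in tamoxifen at 48 h and 0 higher (1 at an unadjusted p of 0.05), and 9 were lower and 1 higher at 72 h. Of 17 mitochondria-specific genes 2 were lower and 0 higher at 48 h (1 at an unadjusted p of 0.05), and 3 were lower and 0 higher at 72 h, with 0 of them higher at 72 h at an unadjusted p of 0.05 too. The median change at 72 h was -0.05 in genes with a counterpart and -0.14 in mitochondria-specific genes, so the set with the larger share of calls had the smaller median. At 72 h the count of genes with a counterpart was 4 without tamoxifen 72 h replicate 1 and 3 without ethanol 72 h replicate 2. The count of mitochondria-specific genes was 1 without tamoxifen 72 h replicate 1 or either ethanol library of 48 h, 0 without ethanol 72 h replicate 1, 2 without ethanol 72 h replicate 2 or either tamoxifen library of 48 h, and 5 without tamoxifen 72 h replicate 2. At 48 h either count was 1 without tamoxifen 48 h replicate 1, 0 without any 1 of the other 3 libraries of 48 h, and 3 without either tamoxifen library of 72 h. At 72 h the share lower was 31.0% in genes with a counterpart and 17.6% in mitochondria-specific genes, beside 18.5% of all tested genes. At 48 h it was 6.90% in genes with a counterpart and 11.8% in mitochondria-specific genes, beside 4.47% of all tested genes. A difference between the sets was not tested.

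Genes named Mrps, most of which encode proteins of the small subunit of the same ribosome, had more members called lower than higher in tamoxifen. Of the 29, Mrps30 and Mrps18a encode large-subunit proteins, are counted again among the large-subunit proteins with other symbols, and were called at neither time. At 48 h 7 of 29 were lower in tamoxifen (24.1%) and 0 higher, 2 at an unadjusted p of 0.05, with a median of -0.11. At 72 h 10 were lower (34.5%) and 3 higher (10.3%), with a median of -0.13. Over all tested genes 4.47% were lower and 7.88% higher at 48 h, and 18.5% lower and 20.1% higher at 72 h. Mrps14 had the smallest p at 48 h (log2 change -0.35, limma adjusted p = 0.0036) and Mrps10 at 72 h (-0.57, limma adjusted p = 0.000338). The count of 7 was 3 without tamoxifen 48 h replicate 2 or ethanol 48 h replicate 2 and 1 without ethanol 48 h replicate 1, and the count of 10 was 5 without ethanol 72 h replicate 1. In the cytosolic ribosome 2 of 52 tested Rpl genes were lower at each time (3.85%) and 0 higher, with 0 higher at 48 h and 4 at 72 h at an unadjusted p of 0.05. The Rpl count at 48 h ran from 1 to 5 and that at 72 h from 2 to 4 when single libraries were left out. At 72 h against 48 h in ethanol 23 Rpl genes were higher (44.2%, near the 38.0% of all tested genes) and 3 lower (5.77%, beside 19.2% of all tested genes). After median-ratio scaling the Rpl counts with time were 17 higher and 11 lower. Cytosolic ribosomal protein genes have many near-identical pseudogenes, so their levels are uncertain.

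**Figure D5:**
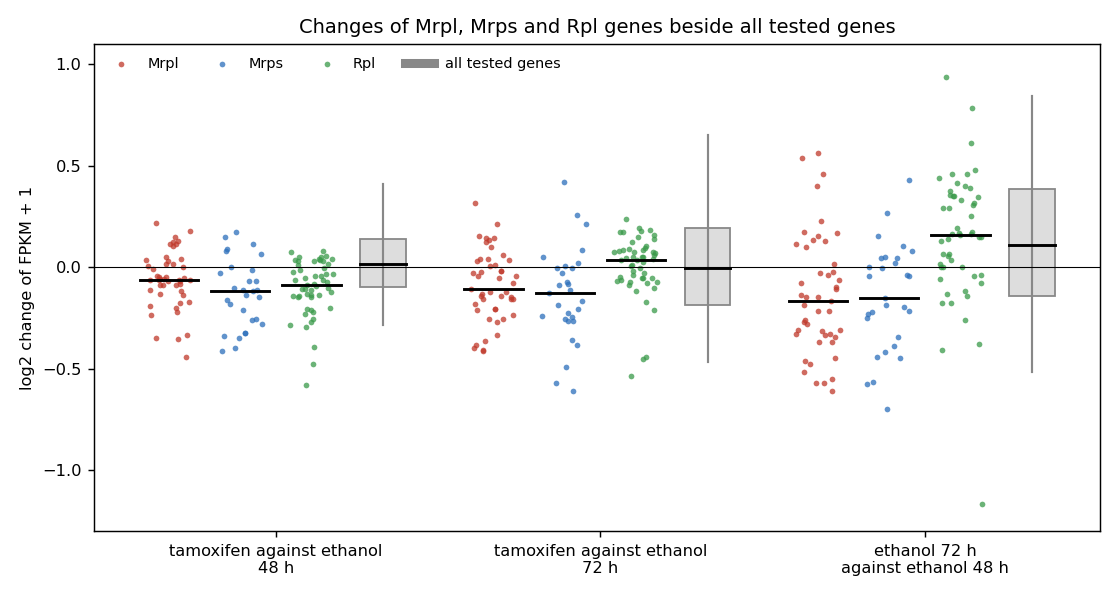
Log2 changes of FPKM + 1 for Mrpl (red), Mrps (blue) and Rpl (green) genes in 3 comparisons, 1 point per gene with a line at the median, beside all tested genes in grey (box from the 25th to the 75th percentile, whiskers from the 5th to the 95th). Between ethanol 72 h and ethanol 48 h the median was -0.17 for Mrpl, -0.15 for Mrps and 0.16 for Rpl.

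Large-subunit proteins that carry other symbols were lower where they changed. Of 5 such genes, 1 was lower in tamoxifen at 48 h and 2 at 72 h, with 0 higher at either time, also at an unadjusted p of 0.05. Ict1, a peptidyl-tRNA hydrolase built into the large subunit, stood at 15.1 and 15.5 FPKM in tamoxifen 72 h, against 21.8 and 20.5 FPKM in ethanol 72 h (log2 change -0.44 ± 0.07 SE, limma adjusted p = 0.000823). Gadd45gip1, another protein of the subunit, stood at 44.8 and 42.8 FPKM in tamoxifen 72 h, against 54.4 and 47.6 FPKM in ethanol 72 h (-0.21 ± 0.07 SE, limma adjusted p = 0.0291). The groups did not overlap in either gene at 72 h. At 48 h the gene was Ict1, at 18.3 and 20.6 FPKM in tamoxifen, against 23.1 and 23.2 FPKM in ethanol (-0.24, limma adjusted p = 0.0467), a call lost without any 1 of 5 libraries. The count of 2 at 72 h was 1 without tamoxifen 72 h replicate 2 or ethanol 72 h replicate 1.

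Genes that build and serve the ribosome reached larger single changes at 72 h, with a largest fall of -0.76 on the log2 scale beside -0.41 among the Mrpl genes. Of 23 genes of ribosome assembly and mitochondrial rRNA modification 3 were lower at 48 h and 0 higher (0 also at an unadjusted p of 0.05), and 6 were lower and 1 higher at 72 h, with medians of -0.12 and -0.09. Eral1, a GTPase that chaperones the small-subunit rRNA, stood at 8.70 and 7.99 FPKM in tamoxifen 72 h, against 15.1 and 14.7 FPKM in ethanol 72 h (log2 change -0.76 ± 0.07 SE, limma adjusted p = 3.87e-05). Ptcd3, an RNA-binding protein of the small subunit, stood at 27.9 and 30.7 FPKM in tamoxifen 72 h, against 46.0 and 47.4 FPKM in ethanol 72 h (-0.66 ± 0.07 SE, limma adjusted p = 6.5e-05). Both were also lower at 48 h, with log2 changes of -0.48 and -0.45. Malsu1, the factor that docks on Mrpl14, stood at 14.5 and 17.9 FPKM in tamoxifen 72 h, against 24.8 and 22.6 FPKM in ethanol 72 h (-0.53 ± 0.11 SE, limma adjusted p = 0.00331). These 3 had groups that did not overlap at 72 h. Malsu1 was named after its values were seen.

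Of 13 translation factors 1 was lower at 48 h, and 0 without tamoxifen 48 h replicate 1 or either ethanol library of 48 h, and 4 at 72 h, with 0 higher at either time (0 and 1 at an unadjusted p of 0.05). Gfm2, which splits the ribosome after termination, stood at 16.0 and 14.9 FPKM in tamoxifen 72 h, against 22.01 and 22.2 FPKM in ethanol 72 h (-0.49 ± 0.06 SE, limma adjusted p = 0.000236). Guf1, a back-translocating GTPase, stood at 5.92 and 6.27 FPKM in tamoxifen 72 h, against 9.96 and 9.34 FPKM in ethanol 72 h (-0.59 ± 0.08 SE, limma adjusted p = 0.000394). In both the groups stood clear of each other. Of 7 genes of mitochondrial transcription 1 was lower at 48 h and 4 at 72 h, with 0 higher at either time, also at an unadjusted p of 0.05. The shares lower at 48 h were thus 7.69% of translation factors and 14.3% of transcription genes, beside 4.47% of all tested genes. Of all tested genes 7.88% were higher at 48 h and 20.1% at 72 h. The count of 4 was 2 without tamoxifen 72 h replicate 1 or ethanol 72 h replicate 2, and that of 48 h was 0 without ethanol 48 h replicate 1. Tefm, the elongation factor of the mitochondrial RNA polymerase, stood at 7.26 and 9.20 FPKM in tamoxifen 72 h, against 14.4 and 13.5 FPKM in ethanol 72 h (-0.70 ± 0.10 SE, limma adjusted p = 0.00052). The shares lower at 72 h were 25.5% of Mrpl genes, 26.1% of the assembly and rRNA modification genes, 30.8% of the translation factors, 34.5% of Mrps genes, 57.1% of the transcription genes and 3.85% of Rpl genes, beside 64.3% of the stem cell markers and 18.5% of all tested genes. Differences between these lists were not tested.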

How the data were processed

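Bead-enriched mRNA of 8 mouse embryonic stem cell libraries was sequenced, with 2 libraries in each of 4 groups given by the labels. Per the submitters' processing notes BWA 0.6.1, TopHat 1.4.1, Cufflinks 1.3.0, HTSeq, DESeq and the mm9 build were used, with no roles given. The authors deposited FPKM with the bounds of its interval per gene and library, and no rescaling between libraries is stated. They also deposited a comparison table per time, with the signal in each condition (mean counts divided by size factors, pooled over libraries), the ratio of ethanol over tamoxifen (fold change), its log2 and the p-values. The signs of those log2 values were turned here to tamoxifen over ethanol.

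Of 20789 entries, 209 without an OK status in some library were left out, and the entry of highest mean FPKM was kept per identifier, which left 20388. Genes with at least 1 FPKM in at least 2 libraries, 11867 in all, were tested on log2(FPKM + 1) with limma 3.58.1 in R 4.3.3, with 4 group means, a mean trend and 4 residual degrees of freedom, after a check on simulated data. Benjamini-Hochberg adjustment ran over all tested genes within a comparison, and calls were made at an adjusted p of 0.05. Changes on this scale are compressed for low genes. The FPKM values are not counts, so the fragments per gene, about 8990000 to 16850000 in all per library, were implied from the intervals and served only to describe depth. The members and gene lists were chosen with earlier results of these data known. Genes named are those called in a comparison (at most the 12 of smallest p, and the 2 of largest change each way), the 3 of smallest p for the difference between times, the 3 of highest and of lowest level, and the 2 of smallest p in other lists. Other names are said to be chosen after the values were seen, or are given as structural partners that did not pass. The alternatives were other pseudocounts, scalings, filters, spread models and samples in the fit, a replicate block and leaving out each library. Start positions were zero-based and had 1 added.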

Additional observations from a re-analysis of the deposited data

Results flagged for a closer look

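Mrpl55 had a change between tamoxifen and ethanol that differed between the times by the test of the difference itself. The change was 0.06 at 72 h and -0.44 at 48 h, a difference of 0.50 ± 0.09 on the log2 scale (SE, limma adjusted p = 0.025). It was 19.4 and 19.3 FPKM in tamoxifen 72 h, against 19.1 and 17.8 FPKM in ethanol 72 h, and 19.8 and 19.2 FPKM in tamoxifen 48 h, against 25.8 and 27.9 FPKM in ethanol 48 h. The 2 libraries of ethanol 48 h thus stood apart from the other 6.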

How the results depend on the processing

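Of the genes named, 1 of 5 calls at 48 h (Mrpl55), 3 of 12 at 72 h (Mrpl3, Mrpl33, Mrpl10), 0 of 1 for the difference between times and 12 of 12 between the ethanol times held under every alternative, and 0 values reversed. Those 12 were the calls of smallest p among 22 genes lower and 5 higher, and not every other call held. Without the filter 16 genes were lower and 4 higher between the ethanol times. The rise of Mrpl24 was not called there, nor with median-ratio scaling, without the trend or with a replicate block. At 48 h the count of Mrpl genes higher was 1 with a pseudocount of 0.1 or without the filter, where the gene was Mrpl28. It was also 1 with only the 4 libraries of the comparison, where the gene was Mrpl43, named after its values were seen. The count lower was 2 without the filter and 3 without the trend. Over all genes at 48 h, 360 were higher and 163 lower without the filter, and 849 lower with median-ratio scaling. At 72 h, 2 Mrpl genes were higher with quantile normalization or only 4 libraries, and 4 lower without the filter, where the call of Mrpl24 was lost too. For the difference between times, 2 Mrpl genes were higher with a pseudocount of 5 or quantile normalization, and 0 without the filter. Over all genes that difference gave 20 higher and 10 lower without the filter, and 148 and 78 without the trend. Between the ethanol times, 3482 of all genes were lower with median-ratio scaling, and the Mrpl median was -0.31. Without the filter more genes entered the fit, and otherwise the cause was not tested.

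Leaving out single libraries gave 0 to 1 Mrpl genes higher and 1 to 7 lower at 48 h, and 319 to 961 of all genes higher and 121 to 622 lower. At 72 h it gave 1 to 2 Mrpl genes higher, 5 to 14 lower, a median of -0.13 to -0.038, and 1460 to 2172 of all genes lower. For the difference it gave 0 to 1 Mrpl genes higher, a median of -0.090 to 0.0058, and 37 to 160 of all genes higher and 13 to 100 lower. Between the ethanol times it gave 4 to 6 Mrpl genes higher and 17 to 23 lower.

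Replicate numbers are shared between groups. The deviation of replicate 1 from its group mean, correlated over genes between groups, gave values of -0.28 to 0.15. With 2 libraries per group these values cannot show whether same-numbered libraries share more than a number. With a replicate block 5 Mrpl genes were lower at 48 h and 11 at 72 h, where Mrpl39 and Mrpl45 lost their calls and Mrpl38 gained one, and for the difference 108 of all genes were lower.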

Other observations

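Changes of the Mrpl genes were also set against the length of the gene from start to end in mm9, a property that no other result here used. Over the 47 genes the Spearman correlation of the log2 change between tamoxifen and ethanol with the log2 genomic span was -0.46 at 48 h and -0.31 at 72 h, while over all tested genes it was 0.02 at 48 h and -0.02 at 72 h. These values describe genes measured in the same libraries and carry no test. Of the 10 Mrpl genes of longest span (10993 to 58880 bases) 9 had a negative change at 48 h and 10 at 72 h. Of the 10 of shortest span (825 to 3111 bases) 3 had a negative change at 48 h and 8 at 72 h. The relation was looked for after the values were seen.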
